A study of Homo sapiens with 2 samples.

Results

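The genes described are 10 members of the insulin-like growth factor (IGF) system, chosen by symbol from a table of 60527 genes: the binding protein genes IGFBP1, IGFBP2, IGFBP3, IGFBP4, IGFBP6 and IGFBP7, the receptor genes IGF1R and IGF2R, and the insulin receptor substrate genes IRS1 and IRS2. RNA was sequenced from cells given 1.75 µM JNJ-7706621, known as an inhibitor of cyclin-dependent and Aurora kinases, and from cells given DMSO, its solvent, each for 48 h. Both carry the label SK-MEL-2, a human melanoma line, and both grew in medium with fetal bovine serum. The series title concerns AUF1, a protein encoded by HNRNPD that binds AU-rich mRNA, and mRNA degradation. Each group has 1 library matched to a described sample, so no difference below has a replicate check and no test was run.

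Insulin-like growth factors act through IGF1R, a receptor tyrosine kinase at the cell surface that phosphorylates the docking proteins IRS1 and IRS2 and so recruits PI3 kinase and AKT. IGF2R has no kinase activity: it takes up IGF2 for breakdown and carries lysosomal enzymes that bear mannose 6-phosphate. The secreted binding proteins hold the growth factors outside the cell, lengthen their life in blood and limit or deliver them to the receptor. Serum contains growth factors and binding proteins of its own, and only mRNA was measured here.

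Levels are FPKM, fragments per kilobase of exon and per 1000000 fragments, so they are scaled for length and can be set side by side between genes. The library totals behind them were 22817719 reads for JNJ-7706621 and 23377161 for DMSO. Intervals in parentheses are 95% Clopper-Pearson intervals of the FPKM ratio of JNJ-7706621 over DMSO. They cover counting error only. The log2 difference sets log2(FPKM + 1) under JNJ-7706621 against its value under DMSO (JNJ-7706621 minus DMSO), which understates the difference of genes at low levels. A gene was called 2-fold or 1.5-fold higher or lower where the log2 difference reached 1 or 0.58 in size and its FPKM averaged 1 or more across the libraries, which is what measured means below.

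In both libraries most melanocyte markers were at or near 0, although the label names a melanoma line. Of 15 melanocyte markers 4 were measured, and the list summed to 11.7 FPKM in the JNJ-7706621 library and 7.29 FPKM in the DMSO library. The lineage factor gene SOX10 had 0 and 1 reads, and TYR, S100B, MIA, EDNRB and SLC45A2 were listed at 0 in both. MIA shares 60.9% of its exon length with MIA-RAB4B on the same strand, also listed at 0, so its listing is no measure of absence. The 4 measured were RAB38, at 4.19 FPKM in JNJ-7706621 and 1.43 FPKM in DMSO, PMEL, at 3.71 and 2.00 FPKM, MITF, at 2.27 and 2.65 FPKM, and ERBB3, at 1.19 and 0.937 FPKM. By the 1.5-fold rule RAB38 and PMEL were higher in the JNJ-7706621 library, as were 8.53% of all genes measured. RAB38, with 137 reads in JNJ-7706621 and 48 in DMSO, was also 2-fold higher, as were 2.39% of all genes measured. Of 12 epithelial markers 10 were measured, with list sums of 2308 FPKM in JNJ-7706621 and 2317 FPKM in DMSO. The highest were KRT18, at 1123 FPKM in JNJ-7706621 and 1117 FPKM in DMSO, and KRT8, at 703 and 720 FPKM. Among the 10, 2 were 1.5-fold lower and 0 higher, where 6.77% and 8.53% of all genes measured were. They were MUC1, at 4.08 FPKM in JNJ-7706621 and 8.83 FPKM in DMSO, and ESRP1, at 12.2 and 19.3 FPKM. Markers of hepatocytes, fibroblasts, endothelium and immune cells had 0 of 8, 0 of 9, 0 of 6 and 0 of 6 genes measured, with list sums of 0.914, 1.39, 0.388 and 1.33 FPKM in JNJ-7706621 and 0.472, 0.307, 0.147 and 0.834 FPKM in DMSO. The part of cell identity in the values below was not tested. In bulk RNA, fewer cells of a type and less RNA per cell cannot be told apart.

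All 10 genes passed the filter on low levels. In the JNJ-7706621 library the abundant binding protein genes IGFBP1, IGFBP3 and IGFBP4 and the docking protein gene IRS2 stood lower than in the DMSO library. IGFBP2, IGFBP6, IGF2R and IRS1 stood higher. IGFBP7 and IGF1R differed least. Of the 10 genes 1 was 2-fold lower (IGFBP1) and 0 were 2-fold higher, where 1.36% of the 13241 genes measured were 2-fold lower and 2.39% were 2-fold higher. By the 1.5-fold rule 4 were lower (IGFBP1, IGFBP3, IGFBP4 and IRS2) and 1 was higher (IGFBP6), against 6.77% and 8.53% of all genes measured. The genes were picked with results of this same comparison known, so these counts describe them and carry no further weight. Their median log2 difference was -0.10, and that of all genes measured was -0.0032.

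**Figure D1:**
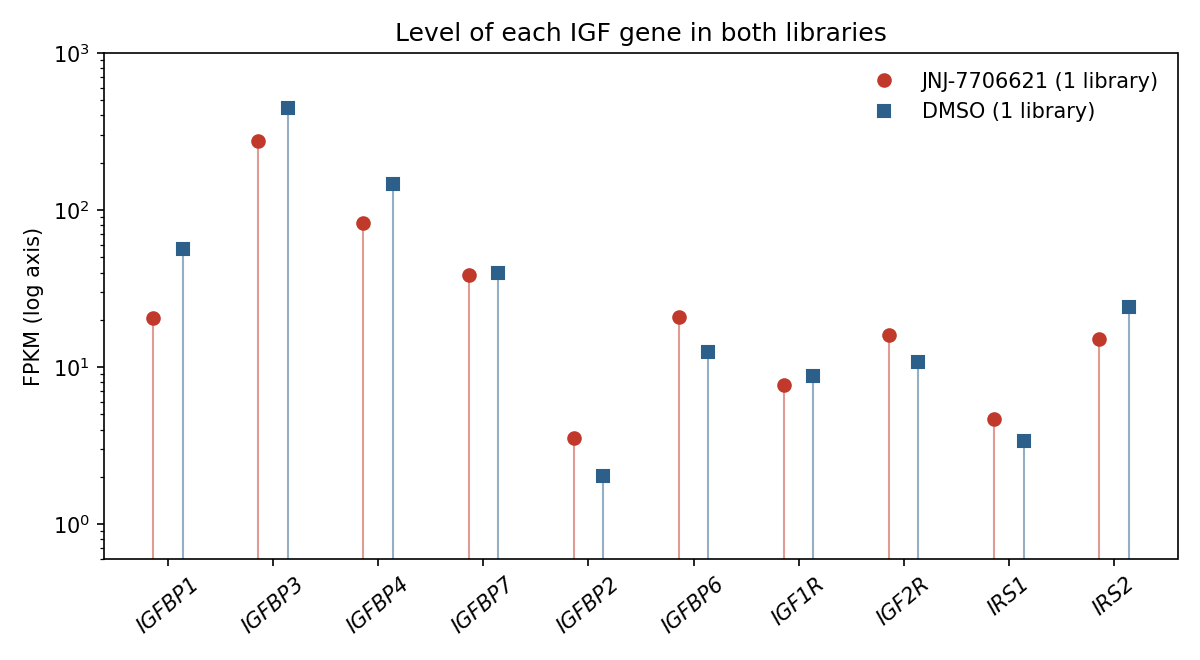
FPKM on a log axis for each of the 10 genes, with a circle for the JNJ-7706621 library and a square for the DMSO library (1 library each, no error bars). IGFBP3 stands highest in both, at 275 FPKM and 449 FPKM, and IGFBP2 lowest, at 3.53 FPKM and 2.02 FPKM.

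The order of levels was IGFBP3, IGFBP4, IGFBP7, IGFBP6, IGFBP1, IGF2R, IRS2, IGF1R, IRS1 and IGFBP2 in the JNJ-7706621 library. In the DMSO library it was IGFBP3, IGFBP4, IGFBP1, IGFBP7, IRS2, IGFBP6, IGF2R, IGF1R, IRS1 and IGFBP2. IGFBP1 stood below IGFBP7 and IGFBP6 under JNJ-7706621 and above both under DMSO, while the top pair and the bottom 3 were the same. With 1 library a group the spread behind these ranks is unknown, and neighbours such as IGFBP6 at 20.9 FPKM and IGFBP1 at 20.4 FPKM in the JNJ-7706621 library were close.

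IGFBP1 encodes a binding protein known from liver and decidua, whose transcription insulin represses through FOXO factors. It had 20.4 FPKM in the JNJ-7706621 library (766 reads) and 56.8 FPKM in the DMSO library (2180 reads), a ratio of 0.360 (0.331 to 0.391). This was the largest difference among the 10 genes, a log2 difference of -1.43, and 60 of the 13241 genes measured stood at or below it. The rule for likeness took the 3 genes whose log2 ratio was nearest among 1844 genes with a mean FPKM within 2 times that of IGFBP1. They were CFD, which encodes complement factor D, at 21.3 FPKM in JNJ-7706621 and 58.5 FPKM in DMSO, FOXC1, a forkhead transcription factor gene, at 24.2 and 65.2 FPKM, and VCAN, which encodes the matrix proteoglycan versican, at 12.6 and 38.6 FPKM. Likeness over 2 libraries is no more than a similar ratio.

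IGFBP3 encodes the main IGF carrier of serum and was the most abundant of the 10 genes. It had 275 FPKM in the JNJ-7706621 library (28647 reads) and 449 FPKM in the DMSO library (48010 reads), a ratio of 0.611 (0.602 to 0.620). Among all genes it ranked 135 from the top in the JNJ-7706621 library and 80 in the DMSO library. IGFBP1 and IGFBP3 are neighbours on chromosome 7 (GRCh38, GENCODE release 29). IGFBP1 lies at 45888357 to 45893668 on the plus strand and IGFBP3 at 45912245 to 45921874 on the minus strand, with 18576 bases between them, so that their 3' ends face each other. The nearest measured genes on either side had ratios closer to 1 or above it. SEPTIN7P2, a pseudogene 119371 bases away whose reads may be shared with its parent gene, had 2.67 FPKM in JNJ-7706621 and 3.00 FPKM in DMSO, a ratio of 0.891 (0.755 to 1.05). TNS3, a gene of focal adhesions 1353279 bases away on the other side, had 29.3 and 22.4 FPKM, a ratio of 1.31 (1.27 to 1.35).

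IGFBP4 encodes a binding protein known mainly as an inhibitor of IGF action, which the protease PAPPA cleaves. It had 83.0 FPKM in the JNJ-7706621 library (4174 reads) and 148 FPKM in the DMSO library (7607 reads), a ratio of 0.562 (0.541 to 0.584). IGFBP4 lies on chromosome 17 at 40443461 to 40457731 on the plus strand. It was the 1 gene, of the 8 with an entry in the RefSeq promoter table, that held the TATA box letters TATAAA on either strand within 250 bases before a start site. The match begins 29 bases before the start, and 10.7% of 35116 promoter windows of that length hold one. The stretch is shown because IGFBP4 had the largest difference among the genes with an entry. It is chr17:40443200-40443449, plus strand (RefSeq, GRCh38.p14), with the match in capitals.
IGFBP4: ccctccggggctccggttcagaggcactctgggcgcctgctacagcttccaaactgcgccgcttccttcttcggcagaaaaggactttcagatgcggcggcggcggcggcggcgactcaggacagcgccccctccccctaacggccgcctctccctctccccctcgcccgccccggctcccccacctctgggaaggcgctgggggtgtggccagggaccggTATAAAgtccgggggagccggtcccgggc

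IGFBP6 and IGFBP2 went the other way. IGFBP6, whose protein binds IGF2 more tightly than IGF1, had 20.9 FPKM in the JNJ-7706621 library (643 reads) and 12.6 FPKM in the DMSO library (395 reads), a ratio of 1.67 (1.47 to 1.90). IGFBP2, whose protein is known as a carrier of IGF2 and is often raised in tumours, had 3.53 FPKM in JNJ-7706621 (382 reads) and 2.02 FPKM in DMSO (224 reads), a ratio of 1.75 (1.48 to 2.07). Its log2 difference of 0.58 fell just short of the 1.5-fold rule. IGFBP6 lies on chromosome 12 and was the only one of the 8 genes with the forkhead letters GTAAACA in its window. The match begins 186 bases before the RefSeq start, and 2.98% of all windows hold one on either strand. GENCODE release 29 begins this gene at 53097436 on the plus strand, so the match lies inside the gene as annotated there. A stretch of 29 bases around the match is shown, chr12:53097470-53097498, plus strand (RefSeq, GRCh38.p14), with the match in capitals.
IGFBP6: caatttgggaaGTAAACAgaaactggaaa

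IGFBP7, whose protein binds IGFs weakly and insulin, differed by less than its counting error. It had 38.8 FPKM in the JNJ-7706621 library (1710 reads) and 39.5 FPKM in the DMSO library (1782 reads), a ratio of 0.983 (0.919 to 1.05). Exons of genes on the other strand, IGFBP7-AS1 and POLR2B, overlap 18.9% of its exon length, and whether counting used strand is not given in the sources used here. IGFBP7-AS1 had 3.64 FPKM in JNJ-7706621 and 3.35 FPKM in DMSO, and POLR2B, an RNA polymerase II subunit gene, had 18.6 and 18.2 FPKM. Of the other 9 genes, IRS2 shares 1.41% of its exon length with AL162497.1 on the other strand and the rest share none.

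The 6 binding protein genes together summed to 441 FPKM in the JNJ-7706621 library and 708 FPKM in the DMSO library, a ratio of 0.624. IGFBP1, IGFBP3 and IGFBP4 summed to 378 FPKM in JNJ-7706621 and 654 FPKM in DMSO, whereas IGFBP2 and IGFBP6 summed to 24.5 and 14.6 FPKM. The differences, JNJ-7706621 minus DMSO, were -276 FPKM for the first 3, of which IGFBP3 gave -175 FPKM, and 9.89 FPKM for the other pair. IGFBP3 made up a similar share of the sum in both, 62.2% in JNJ-7706621 and 63.5% in DMSO. IGFBP1 held 4.63% in JNJ-7706621 and 8.02% in DMSO, and IGFBP6 held 4.74% and 1.77%. The level of IGFBP1 over that of IGFBP6 was 0.977 in the JNJ-7706621 library and 4.52 in the DMSO library.

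**Figure D2:**
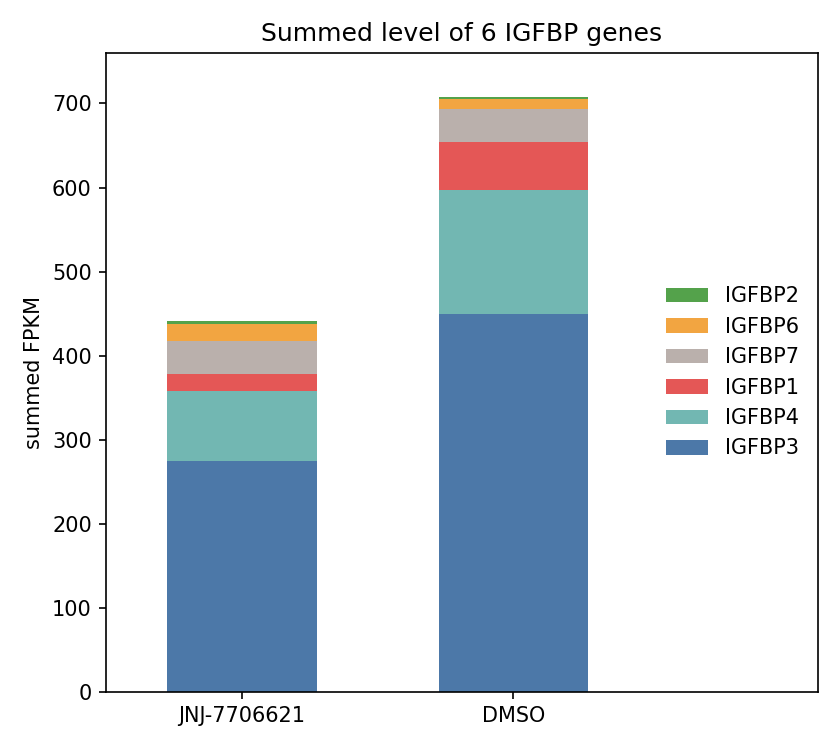
Stacked FPKM of the 6 binding protein genes in the JNJ-7706621 library and the DMSO library (1 library each). The stack reaches 441 FPKM in JNJ-7706621 and 708 FPKM in DMSO, and IGFBP3 is the largest block in both.

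The 3 ligand genes were listed at or near 0. IGF1 was listed at 0 in the JNJ-7706621 library and at 0.0421 FPKM (8 reads) in the DMSO library, IGF2 had 1 read in JNJ-7706621 and was listed at 0 in DMSO, and the insulin gene INS was listed at 0 in both. A listing at 0 is no measure of absence in this table where genes overlap. PIK3R2, a PI3 kinase subunit gene in wide use, was listed at 0 in both libraries, and 87.2% of its exon length is shared with AC007192.1 on the same strand. IGF1 shares 82.4% of its exon length with HELLPAR on the opposite strand, listed at 0.0115 FPKM in JNJ-7706621 and 0.00751 FPKM in DMSO. IGF2 shares 75.0% of its exon length with other entries. A second entry named IGF2 on the same strand, at 0.0157 FPKM in JNJ-7706621 and 0 in DMSO, covers 73.7%. INS shares 31.7% with INS-IGF2 on the same strand, listed at 0 in both. No source used here gives how such reads were assigned. The binding protein gene IGFBP5 had 3 reads in JNJ-7706621 and 1 in DMSO. IGFALS, the gene of the acid-labile subunit that joins IGFBP3 and IGF in blood, had 0 and 7 reads.

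The receptor genes differed in opposite directions. IGF1R had 7.65 FPKM in the JNJ-7706621 library (2432 reads) and 8.77 FPKM in the DMSO library (2859 reads), a ratio of 0.872 (0.825 to 0.920). IGF2R had 15.9 FPKM in JNJ-7706621 (6474 reads) and 10.8 FPKM in DMSO (4507 reads), a ratio of 1.47 (1.42 to 1.53). The level of IGF2R was 2.08 times that of IGF1R in the JNJ-7706621 library and 1.23 times in the DMSO library. The insulin receptor gene INSR, below a mean FPKM of 1, had 0.599 FPKM in JNJ-7706621 (148 reads) and 0.987 FPKM in DMSO (250 reads), a ratio of 0.607 (0.492 to 0.746).

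The window before the start of IGF2R holds the E-box letters CACGTG 3 times, beginning 132, 74 and 28 bases before the start. These letters read the same on both strands. A match at least once occurs in 6.34% of the 35116 windows and at least 3 matches in 28 of them, or 0.0797%. None of the other 7 genes with an entry held one. The stretch is chr6:159968832-159969081, plus strand (RefSeq, GRCh38.p14), with the matches in capitals, and a match does not show that a factor binds.
IGF2R: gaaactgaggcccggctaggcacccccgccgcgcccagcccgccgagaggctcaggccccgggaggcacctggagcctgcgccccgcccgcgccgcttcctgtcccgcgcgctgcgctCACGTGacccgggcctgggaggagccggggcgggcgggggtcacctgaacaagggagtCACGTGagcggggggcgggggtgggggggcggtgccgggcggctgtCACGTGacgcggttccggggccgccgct

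The docking protein genes also parted. IRS2 had 15.2 FPKM in the JNJ-7706621 library (2826 reads) and 24.3 FPKM in the DMSO library (4631 reads), a ratio of 0.625 (0.596 to 0.655). IRS1 had 4.67 FPKM in JNJ-7706621 (1060 reads) and 3.41 FPKM in DMSO (793 reads), a ratio of 1.37 (1.248 to 1.503). The level of IRS2 was 3.25 times that of IRS1 in the JNJ-7706621 library and 7.13 times in the DMSO library. The GC box letters GGGCGG, held by 42.6% of all windows on either strand, occurred before at least 1 start of all 8 genes with an entry, from 6 times in IGF2R, 5 in IRS2 and 4 in IRS1 down to 1 in IGFBP2, IGFBP4 and IGFBP6. IRS2, like IGFBP1, is known as a gene that FOXO factors induce and insulin represses.

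IRS2 lies on chromosome 13 at 109752698 to 109786568 on the minus strand. Its window was the only one of the 8 genes' to hold the core letters of the insulin response element, CAAAACA, read on the opposite strand as TGTTTTG. The match begins 40 bases before the start, and 4.30% of all windows hold one on either strand. It is shown because this element is known from insulin-repressed genes. The stretch is chr13:109786584-109786833, minus strand (RefSeq, GRCh38.p14), with the match in capitals.
IRS2: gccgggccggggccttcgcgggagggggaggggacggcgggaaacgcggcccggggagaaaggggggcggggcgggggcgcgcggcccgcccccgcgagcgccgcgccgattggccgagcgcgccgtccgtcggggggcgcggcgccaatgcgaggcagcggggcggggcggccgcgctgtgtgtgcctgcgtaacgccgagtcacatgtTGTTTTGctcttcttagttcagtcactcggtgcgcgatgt

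**Figure D3:**
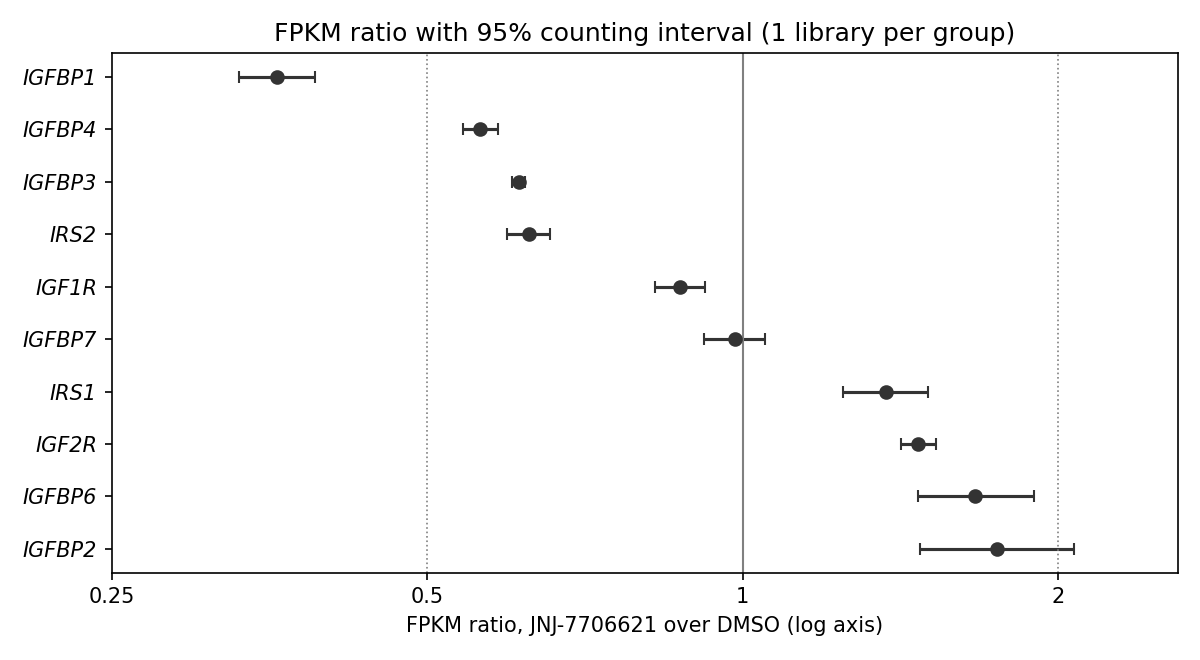
FPKM ratio of JNJ-7706621 over DMSO on a log axis for the 10 genes, sorted, with 95% counting intervals as bars. A solid line marks a ratio of 1 and dotted lines mark 2-fold. Only IGFBP1, at 0.360, lies beyond 2-fold, and only the interval of IGFBP7 spans 1.

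Because the series title concerns AUF1 and AU-rich mRNA, the pentamer ATTTA was counted on the transcribed strand, using for every gene its longest 3' UTR in GENCODE release 29. The heptamer TATTTAT, which contains the pentamer, was counted likewise. The libraries hold no measure of AUF1 binding or of mRNA decay. IGFBP1, the gene with the largest difference, had 5 pentamers in 577 bases. The median was 1 in the 1143 3' UTRs of measured genes between 0.8 and 1.25 times that length, and 2.80% of those held 5 or more. It had 2 heptamers, a number reached by 3.15% of the same 3' UTRs. Of the lower genes IGFBP3 and IRS2, and of the higher genes IGFBP2, IGF2R and IRS1, each had 1 heptamer, and the other 4 genes had 0. At least 1 heptamer was held by 35.4% of like 3' UTRs for IGFBP3 and 61.6% for IRS2. For IGFBP2, IGF2R and IRS1 the shares were 13.2%, 75.6% and 71.7%.

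The lower genes had no common excess of pentamers over 3' UTRs of like length. IGFBP3 had 2 pentamers in 1605 bases against a median of 3, and IGFBP4 had 1 in 1148 bases against a median of 2. IGFBP7, with little difference between libraries, had 3 in 544 bases, a number reached by 12.5% of like 3' UTRs. IRS1 and IRS2, which differed in opposite directions, had 13 in 4955 bases and 11 in 3606 bases against medians of 11 and 8. IGF2R had 4 in 6420 bases against a median of 14, and IGF1R had 12 in 7088 bases against a median of 17. IGFBP2 had 1 pentamer and IGFBP6 had 0. HNRNPD itself had 30.3 FPKM in JNJ-7706621 and 39.2 FPKM in DMSO, a ratio of 0.774 (0.745 to 0.803).

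All heptamer matches are shown, from 3 lower and 3 higher genes, to let their surroundings be compared. Each is a stretch of 29 bases from GENCODE release 29 transcripts, as DNA letters 5' to 3', with the heptamer in capitals. The heptamers begin at bases 50 and 153 of the 3' UTR of IGFBP1, at base 1459 in IGFBP3, 2453 in IRS2, 382 in IGF2R, 264 in IGFBP2 and 3175 in IRS1.
IGFBP1, base 50: agtatatagtaTATTTATactctagaaca
IGFBP1, base 153: agaaagctgttTATTTATtcactgtaagt
IGFBP3: gtcttgcaatgTATTTATaaatagtaaat
IRS2: ataaagtacatTATTTATgaaatgaatac
IGF2R: ttctctcccccTATTTATtgactttgaca
IGFBP2: tctgacacacgTATTTATatttggaaaga
IRS1: cggaaactttaTATTTATttactgcaggt

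**Figure D4:**
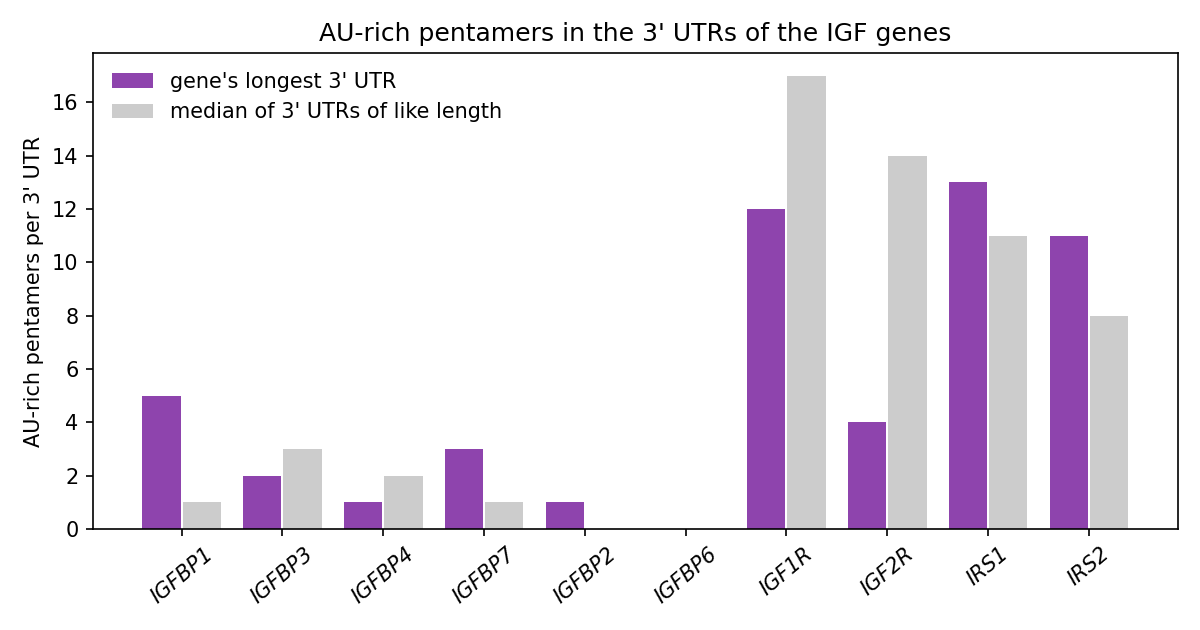
AU-rich pentamers in the 3' UTR (longest annotated) of the 10 genes, beside the median of measured genes with a 3' UTR of like length (0.8 to 1.25 times). IGFBP1 has 5 against a median of 1, while IGF2R has 4 against a median of 14.

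Genes around the IGF system were grouped by role. Of 15 binding proteins and related genes 11 were measured, the 6 above among them. The median log2 difference was -0.53, with 2 genes 2-fold higher and 1 lower, where 2.39% and 1.36% of all genes measured were. By the 1.5-fold rule 3 were higher and 5 lower, where 8.53% and 6.77% of all genes were. The median was -0.024 with no filter on low levels and -0.32 after each library was rescaled to the same sum. HTRA1, a secreted serine protease with an IGFBP-like domain, had 27.1 FPKM in the JNJ-7706621 library and 11.1 FPKM in the DMSO library, a ratio of 2.45 (2.22 to 2.70). CCN3, a matricellular protein gene, had 5.23 FPKM in JNJ-7706621 and 1.67 FPKM in DMSO, a ratio of 3.13 (2.50 to 3.96). KAZALD1, which encodes an IGFBP-related secreted protein, had 4.75 and 10.3 FPKM, a ratio of 0.462 (0.409 to 0.521).

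Of 12 genes of IGFBP proteases and their inhibitors 7 were measured, and the median was -0.041, with 2 genes 2-fold higher and 0 lower, against 2.39% and 1.36% of all genes measured. STC1, which encodes stanniocalcin, an inhibitor of PAPPA, had 6.55 FPKM in JNJ-7706621 and 2.45 FPKM in DMSO, a ratio of 2.67 (2.30 to 3.12). STC2, the other stanniocalcin gene of this list, was more abundant and differed by less than its counting error. Its FPKM averaged 31.8 across the libraries, with a ratio of JNJ-7706621 over DMSO of 1.01 (0.972 to 1.06). PAPPA itself had 7.93 FPKM in JNJ-7706621 and 9.93 FPKM in DMSO, a ratio of 0.798 (0.754 to 0.846). The matrix protease gene MMP7 had 22.9 and 10.9 FPKM, a ratio of 2.105 (1.91 to 2.33). CTSD, the gene of the lysosomal protease cathepsin D, which IGF2R protein carries, had 45.8 FPKM in JNJ-7706621 and 74.3 FPKM in DMSO, a ratio of 0.616 (0.589 to 0.643).

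The list of receptor substrates and adaptors holds 29 genes, with IRS1 and IRS2 and also regulators such as PTPN1, CBL, SOCS3 and SOS2. Of the 29 genes 21 were measured. None passed the 2-fold rule in either direction, where 2.39% of all genes measured were higher and 1.36% lower. By the 1.5-fold rule 3 were lower and 0 higher, where 6.77% and 8.53% of all genes were. The median was 0.014. Besides IRS2 the lower ones were SOCS3, a feedback inhibitor of cytokine and insulin signalling, at 1.43 FPKM in JNJ-7706621 and 3.24 FPKM in DMSO, and SOS2, an activator of RAS, at 2.38 and 4.55 FPKM. Of 34 genes of PI3 kinase, AKT and mTOR signalling 30 were measured and 0 passed either rule, against the same shares of all genes. The median was -0.10, with differences from -0.54 to 0.34. DEPTOR, an mTOR inhibitor gene, had 3.54 FPKM in JNJ-7706621 and 5.59 FPKM in DMSO, the largest difference in size among them.

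IRS2 and IGFBP1 also belong to the list of FOXO factors and genes that FOXO factors induce or insulin represses. Of its 36 genes 27 were measured, and the median was -0.27, with 1 gene 2-fold higher and 2 lower (2.39% and 1.36% of all genes). By the 1.5-fold rule 4 were higher and 7 lower (8.53% and 6.77% of all genes). Over the whole list with no filter on low levels the median was -0.10. Without IGFBP1 and IRS2, 25 were measured, 10 above 0 and 15 below, and the median was -0.19, with 1 gene 2-fold higher and 1 lower. Among these 25, 4 were 1.5-fold higher and 5 lower. Of all genes measured 49.6% lay above 0. PPARGC1A, a coactivator of mitochondrial and gluconeogenic genes, had 3.85 FPKM in JNJ-7706621 and 9.25 FPKM in DMSO, a ratio of 0.416 (0.386 to 0.449). CITED2, a transcriptional regulator gene, had 10.6 and 20.9 FPKM, while SOD2, the mitochondrial superoxide dismutase gene, had 34.0 FPKM in JNJ-7706621 and 15.4 FPKM in DMSO. FOXO1 had 1.81 and 1.82 FPKM, a ratio of 0.991 (0.833 to 1.18), and FOXO3 had 2.38 and 3.07 FPKM, a ratio of 0.775 (0.681 to 0.882). The gluconeogenic genes PCK1 and G6PC were listed at 0 in both libraries.

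**Figure D5:**
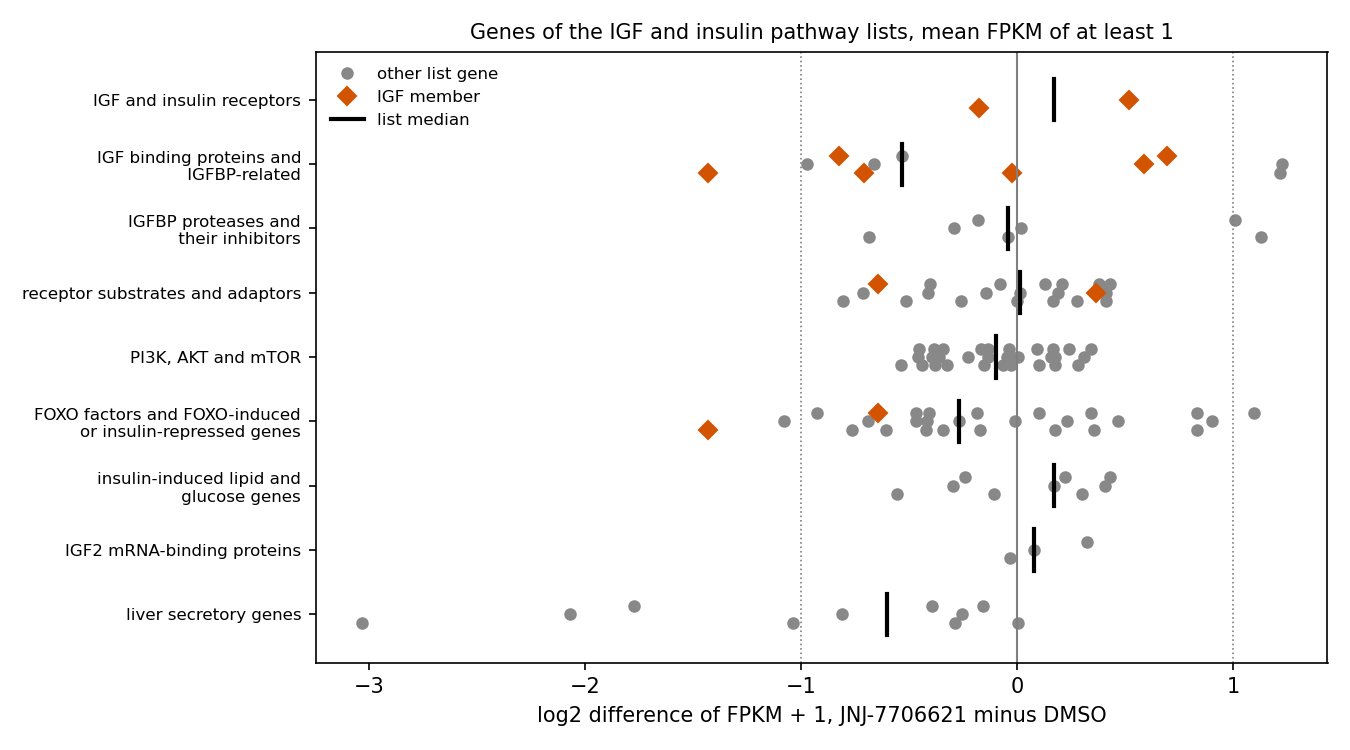
Log2 difference of FPKM + 1, JNJ-7706621 minus DMSO, for the measured genes of each list (grey circles, with the 10 IGF genes as orange diamonds and the list median as a black bar). The IGFBP list spans -1.43 to 1.22, wider than the -0.54 to 0.34 of the PI3K, AKT and mTOR list.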

How the data were processed

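RNA was sequenced in 2 libraries, 1 library per group, so 1 sample each. FPKM values per gene were deposited by the authors, per the file headers. Without giving a role, the submitters' processing notes list hg38 and edgeR. For the aligner, counter and strand setting nothing is given in the sources used here. Of the table's value columns 2 match the samples' titles, and the other 2, whose names end in the number 2 and match no sample title, were not used. Whether they are replicates of these groups was not examined.

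An FPKM value, multiplied by its exon length and the library's total, gives whole reads. Totals and reads were recovered from this for 27805 of 28014 genes above 0 in GENCODE release 29, at the annotated exon length for 17325 genes and otherwise at the nearest length (0.25 to 4 times) that made both values whole within 0.0001 reads. Of the 10 members 6 had reads at the annotated length and 4 at one within 10% of it. These reads served for intervals, and no count test was run. The recovery and the fold rules were tested on simulated data.

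Named genes are the members, 10 related genes and up to 4 per list with the largest difference. The 3 most alike to a member past the 2-fold rule, and STC2 beside STC1, are named too. Genes at 0, markers, and the motifs, promoters and 3' UTR sites shown were picked once values had been seen. The members and lists were chosen with earlier results of these data known. Promoters were found in RefSeq for 8 members, with IGFBP1 and IGFBP7 not among them. In all 7 motifs were searched on both strands. CCAAT matched in IRS2 and at 1 of the 3 starts of IGFBP2, and is held by 32.0% of windows. The AP-1 letters TGANTCA matched in none of the 8 and are held by 6.57%. Python 3.11.15, numpy 2.4.6, pandas 2.3.3, scipy 1.17.1 and matplotlib 3.10.9 were used.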

Additional observations from a re-analysis of the deposited data

How the results depend on the processing

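No paired analysis was possible because each group has 1 library. The 10 members kept the direction of their difference in all 50 values under other pseudocounts and scalings (a filter cannot move a single gene's value) and, in a step chosen after seeing the data, less the median of genes of like exon length and GC content. Values that moved beyond their counting interval were IGFBP2 with a pseudocount of 0.1 (0.78), IGFBP3 divided by the median ratio (-0.73), and, less the length and GC median, IGFBP1 (-1.55), IGFBP3 (-0.74) and IGFBP4 (-0.69). IGFBP2 joined IGFBP6 among the 1.5-fold higher genes (2) with a pseudocount of 0.1 or 0.5 and after rescaling to a sum of 1000000. Over all genes measured, 2-fold higher and lower counts were 608 and 409 of 13241 with a pseudocount of 0.1. They were 145 and 75 of 7057 with a mean FPKM of at least 5, and 714 and 478 of 15964 after rescaling. Rescaling thus also raised the number of genes past the filter. With a pseudocount of 0.5, 274 of 13241 were 2-fold lower. Out of the same numbers of genes, the 1.5-fold counts were 557 and 413 with the filter at 5 and 1834 and 1699 after rescaling. With a pseudocount of 0.1, 1470 were 1.5-fold lower. List medians moved as more or fewer low genes entered. Without a filter they were -0.10 for the FOXO list, -0.082 for the receptors, -0.024 for the binding proteins, 0.0029 for the proteases, 0.094 for the insulin-induced genes and -0.0081 for the liver genes. With the filter at 5 they were -0.41 for the FOXO list, 0.32 for the IGF2 mRNA-binding proteins (1 gene) and -0.93 for the liver genes. After rescaling they were -0.21 for the receptors, -0.32 for the binding proteins and -0.30 for the liver genes. Without replicates, spread between cultures is unknown at any depth.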

Other observations

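Genes outside the IGF pathway proper that share a link with it gave the following values. Of 28 liver secretory genes, a list chosen because IGFBP1 is made by liver, 10 were measured, and the median log2 difference was -0.60, with 4 genes 2-fold lower and 0 higher, where 1.36% and 2.39% of all genes measured were. With no filter on low levels the median of the list was -0.0081. The 4 were the fibrinogen genes FGB, FGA and FGG and the vitronectin gene VTN. VTN had 4.79 FPKM in the JNJ-7706621 library and 10.9 FPKM in the DMSO library, a ratio of 0.439 (0.372 to 0.518). FGB had 2.93 FPKM in JNJ-7706621 and 31.2 FPKM in DMSO, the lowest ratio of the list at 0.0939 (0.0802 to 0.109). ALB had 1 read in JNJ-7706621 and 0 in DMSO, while APOA1, APOA2, APOB, APOC3, TTR and TF were listed at 0 in both.

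Of 13 genes of lipid and glucose metabolism that insulin induces, 9 were measured and 0 passed the 2-fold or the 1.5-fold rule. Of all genes measured 2.39% were 2-fold higher and 1.36% lower, and 8.53% and 6.77% by the 1.5-fold rule. The median of the 9 was 0.17. FASN, the fatty acid synthase gene, had 21.7 FPKM in JNJ-7706621 and 15.9 FPKM in DMSO, a ratio of 1.37 (1.31 to 1.43). INSIG1, a regulator of sterol synthesis, had 6.20 and 9.59 FPKM, a ratio of 0.646 (0.578 to 0.722). The 3 genes of the RNA-binding proteins named for IGF2 mRNA, which are no part of the receptor pathway, passed neither rule. With 3 genes that says little beside the shares of all genes given above. IGF2BP1 had 8.18 FPKM in JNJ-7706621 and 6.35 FPKM in DMSO, IGF2BP2 had 1.68 and 1.54 FPKM, and IGF2BP3 had 3.02 and 3.11 FPKM.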
